A study of Nicotiana tabacum with 8 samples.

Results

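WRKY33 (unigene c78380_g1) and NAC002 (unigene c69854_g3) are 2 transcription factors of tobacco, *Nicotiana tabacum*, that were far more abundant in leaves after 1 day in the cold, in both cultivars studied. They are 2 of the 135146 unigenes (assembled transcript clusters, each treated as a gene) in the deposited table. They were chosen by their identifiers, with the names given in the paper. The paper lists both among the transcription factors most changed by cold, from these same libraries. Their rise is thus not independent evidence. Both passed the filter on low values, a log2 value of 1 or more in 2 or more libraries, as did 31884 unigenes in all. Leaves at the six-leaf stage were sequenced from 4 groups with 2 libraries each. The groups were CB-1 cold (CT) with CB-1 control (CC), and K326 cold (KT) with K326 control (KC). CT and KT plants were held at 4 °C for 1 day, while CC and KC plants stayed at 28 °C by day and 24 °C by night. Each library was made from leaves of 6 plants. The study describes K326 as the hardier cultivar in the cold, and the labels name no transgene. The labels do not say whether the 2 libraries of a group came from separate growth batches, so that p-values measure only the spread between these libraries.

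WRKY and NAC proteins are large families of plant transcription factors. WRKY proteins bind the W-box motif in promoters. In Arabidopsis, WRKY33 is a target of stress-activated MAP kinases, is needed for defence against necrotrophic fungi and switches on genes for the antimicrobial compound camalexin. NAC002 of Arabidopsis, also called ATAF1, responds to drought, wounding and abscisic acid. Tobacco carries gene copies from both of its parental species, so that several similar unigenes can stand for 1 gene of Arabidopsis. The roles given here come from Arabidopsis and are background, not results from tobacco.

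The sequences in hand for c78380_g1 are those of the primer pair that the study designed for it. They are shown because they are the stretches by which the study addressed this unigene as WRKY33, 5′ to 3′ and in lower case throughout, with no part marked.
WRKY33 forward: atccaaagcctcagtccact
WRKY33 reverse: caatgtcctcgtcgccaaaa
Both primers are 20 bases long with a GC content of 50.0%. They served for quantitative PCR of c78380_g1. The paper reports similar trends by quantitative PCR and RNA sequencing for the genes it chose, and those PCR values were not used here. No sequence of NAC002 is given here, and the positions of both unigenes in the tobacco genome were not analysed here.

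The values are log2(value + 1) of an abundance estimated with RSEM, whose scaling is not given in the sources used here, and the table holds no read counts, so that the number of reads behind each value is unknown. Read totals of the libraries are stated in the paper and were not used here. Each library had between 41878 and 51331 unigenes above 0. The control libraries were not most alike within a cultivar. Pearson's correlation across the filtered unigenes, which are no independent replicates, was 0.961 between CC1 and KC2 and 0.947 between KC1 and CC2, against 0.935 within CC and 0.913 within KC. Whether control labels were exchanged was not tested and cannot be told from the sources used here. The libraries were grouped as labelled, so CT minus CC, KT minus KC and KC minus CC compare libraries with those labels. The cold changes of the members are also given without each of these pairs and with the controls as one group. The leaf label was not checked against leaf markers, because the table carries no gene names and the names given by the study cover few unigenes. In leaves as a whole, more RNA per cell and more cells that express a gene cannot be told apart.

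WRKY33 was one of the most strongly raised unigenes of the table. In CB-1 its log2 values were 6.28 (CT1) and 6.98 (CT2), against 0.21 (CC1) and 1.25 (CC2). In K326 they were 7.62 (KT1) and 6.85 (KT2), against 2.63 (KC1) and 0 (KC2). All 4 cold libraries lay above all 4 control libraries, with a gap of 3.65 between the lowest cold library, CT1, and the highest control library, KC1. On the linear scale the unigene had 76.5 (CT1) and 125 (CT2), against 0.16 (CC1) and 1.38 (CC2). It had 196 (KT1) and 115 (KT2), against 5.18 in KC1 and an entry of 0 in KC2. The control leaves of both cultivars thus held little WRKY33, and this low level was the less even one between replicates.

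The group means of WRKY33 were 6.63 ± 0.50 in CT and 0.73 ± 0.73 in CC, and 7.24 ± 0.55 in KT and 1.31 ± 1.86 in KC (log2 values, SD, n = 2). By limma, with p-values adjusted over all unigenes after Benjamini and Hochberg, the log2 fold change in CB-1 was 5.90 (95% interval from 3.77 to 8.02, adjusted p = 0.00396). In K326 it was 5.92 (95% interval from 3.8 to 8.05, adjusted p = 0.00372), and the standard error was 0.87 in both. It is the same because the 4 groups shared 1 estimate of the spread. Fitted on only the libraries compared, the standard error was 0.49 in CB-1 and 1.06 in K326. A larger change was found for 47 of the 31884 unigenes tested in K326 and for 37 in CB-1. Over both cultivars, the difference was 5.91 between 4 cold and 4 control libraries. An exact two-sided permutation test of these libraries gave p = 0.0286, the smallest value that this design allows.

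**Figure D1:**
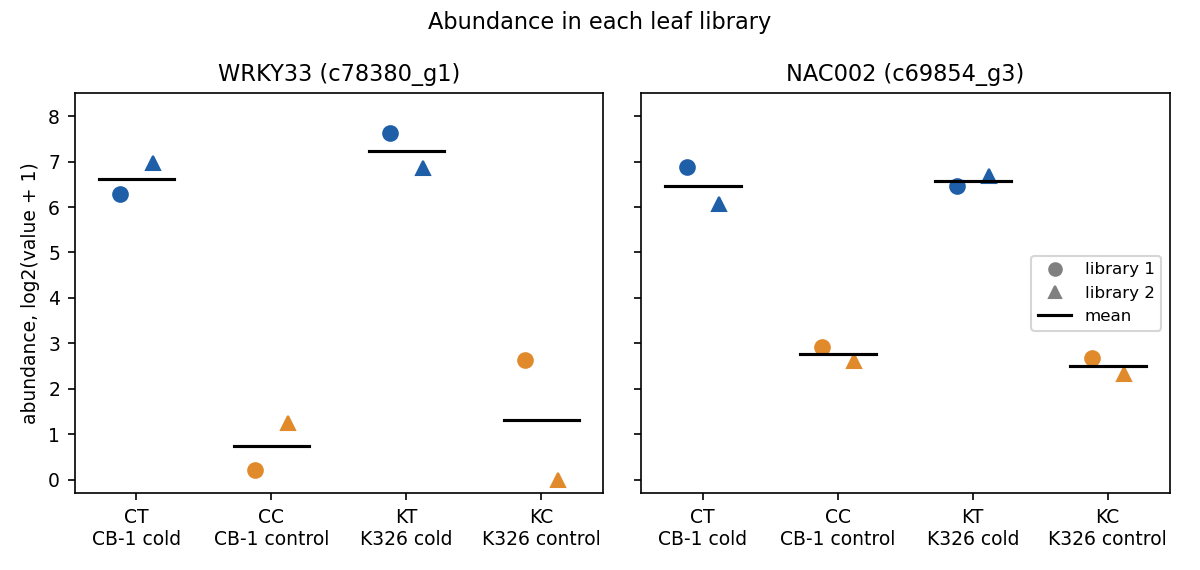
Abundance of WRKY33 (left) and NAC002 (right) in each library, as log2(value + 1), with CT left of CC and KT left of KC; circles are library 1, triangles library 2 and bars the group means. For WRKY33 the cold libraries lie between 6.28 and 7.62 and the control libraries between 0 and 2.63, and for NAC002 between 6.07 and 6.87 and between 2.32 and 2.92.

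NAC002 rose as well, and unlike WRKY33 it was above 0 in every control library. In CB-1 its log2 values were 6.87 (CT1) and 6.07 (CT2), against 2.92 (CC1) and 2.61 (CC2). In K326 they were 6.46 (KT1) and 6.68 (KT2), against 2.69 (KC1) and 2.32 (KC2). The groups did not overlap, with a gap of 3.14 between CT2, the lowest cold library, and CC1, the highest control library. The control libraries spanned 0.61 on the log2 scale, against 2.63 for WRKY33. On the linear scale NAC002 had 116 (CT1) and 66.0 (CT2), against 6.59 (CC1) and 5.11 (CC2). It had 87.3 (KT1) and 102 (KT2), against 5.44 (KC1) and 3.99 (KC2), so that no library lacked it.

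The group means of NAC002 were 6.47 ± 0.57 in CT and 2.77 ± 0.22 in CC, and 6.57 ± 0.15 in KT and 2.50 ± 0.26 in KC (log2 values, SD, n = 2). By limma with Benjamini-Hochberg adjustment, its log2 fold change in K326 was 4.07 (95% interval from 3.33 to 4.81, adjusted p = 0.000527). In CB-1 it was 3.70 (95% interval from 2.97 to 4.44, adjusted p = 0.000685), with a shared standard error of 0.30 in both. Fitted on only the libraries compared, the standard error was 0.35 in CB-1 and 0.20 in K326. There were 284 unigenes with a larger change in K326 and 349 in CB-1. Over both cultivars the 4 cold and 4 control libraries differed by 3.89, with an exact permutation p = 0.0286. Both members were thus past the threshold in both cultivars, an adjusted p under 0.05 and a log2 fold change over 1 in size. Of all unigenes tested, 14.7% rose and 19.5% fell past it in K326, 15.5% rose and 17.4% fell in CB-1, and 20.6% had all cold libraries above all control libraries. With the libraries scaled by their median ratio, 58.8% of the unigenes past the threshold rose in each cultivar, against 42.9% in K326 and 47.0% in CB-1 as deposited, and the changes of the members stayed past it.

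The linear ratio of the means rested on single control libraries for WRKY33. The ratio was 131 in CB-1 (means of 101 in CT and 0.77 in CC) and 60.0 in K326 (155 in KT and 2.59 in KC), while the log2 fold changes differed by 0.03. With 1 control library left out it was 73.1 without CC1 and 631 without CC2, and 30.0 without KC2, while without KC1 no ratio could be formed because KC2 is listed at 0. The order of the cultivars by this ratio is thus not interpretable. For NAC002 it was 15.6 in CB-1 (91.1 in CT and 5.85 in CC) and 20.04 in K326 (94.5 in KT and 4.71 in KC), and between 13.8 and 23.7 with 1 control library left out. With a pseudocount of 0.1 in place of 1, the log2 fold change of WRKY33 was 7.69 in K326 and 7.3 in CB-1, and that of NAC002 was 4.31 in K326 and 3.89 in CB-1. The size of the WRKY33 response thus depended on how the low control values entered, and that of NAC002 did so less.

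The cold response did not differ detectably between the cultivars for either member. The log2 fold change of WRKY33 in K326 minus that in CB-1 was 0.03, with a 95% interval from −2.97 to 3.03 and an adjusted p of 0.999 (interaction contrast in limma with Benjamini-Hochberg adjustment). For NAC002 the difference was 0.37, with an interval from −0.68 to 1.41 and an adjusted p of 0.876. The interval of WRKY33 still holds differences of several fold in either direction, whereas that of NAC002 is narrower. Over all unigenes this contrast put 0 past the threshold in limma (0% of those tested), 2934 at an unadjusted p under 0.05, or 9.20%, and 143 past the threshold in a test without moderation.

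In the cold, both members were slightly higher in K326 on average, within the spread of the libraries. For WRKY33, KT minus CT was 0.61 (95% interval from −1.51 to 2.73, adjusted p = 0.874), and CT2 lay above KT2. For NAC002 it was 0.10 (95% interval from −0.63 to 0.84, adjusted p = 0.985), and CT1 was the highest library (both from limma with Benjamini-Hochberg adjustment). In control leaves, KC minus CC was 0.58 for WRKY33 (95% interval from −1.54 to 2.70) and −0.26 for NAC002 (95% interval from −1.0 to 0.47), both with an adjusted p of 1 in limma. Over all unigenes, 0.248% were higher and 0.157% lower in KT than in CT past the threshold, while KC minus CC put 0 past it (0%) and 3.53% at an unadjusted p under 0.05. The levels of WRKY33 thus ran KT, CT, KC, CC from high to low and those of NAC002 KT, CT, CC, KC. In neither order did the 2 cold groups, or the 2 control groups, differ beyond their spread.

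Left out in turn, no single library took either member below the threshold in either cultivar. The change of WRKY33 in K326 moved most, to 7.24 without KC1 (adjusted p = 0.00478) and to 4.61 without KC2 (adjusted p = 0.00973), since these libraries differed by 2.63. This difference was larger than that of 98.8% of the unigenes tested, against a median of 0.24. For NAC002 the widest move was in CB-1, to 4.11 without CT2 and 3.30 without CT1. With all 4 control libraries as one group, the change of WRKY33 was 6.21 in K326 and 5.60 in CB-1, and that of NAC002 was 3.94 in K326 and 3.83 in CB-1. Without CC2 and KC1, a setting chosen after seeing the data, WRKY33 changed by 7.24 in K326 and 6.41 in CB-1, and NAC002 by 4.25 in K326 and 3.55 in CB-1. Without CC1 and KC2, WRKY33 changed by 4.61 in K326 and 5.38 in CB-1, and NAC002 by 3.89 in K326 and 3.86 in CB-1. The adjusted p lay between 0.0138 and 0.0330 in these 2 settings (limma), and for WRKY33 the order of the cultivars turned round between them.

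Each member has partners from the same assembly component, which share part of the assembly graph and can share reads. Component c78380 holds 4 unigenes and c69854 holds 3. The second unigene named WRKY33, c78380_g2, had log2 values of 5.64 (CT1) and 6.17 (CT2), against 0.58 (CC1) and 1.62 (CC2). In K326 it had 6.78 (KT1) and 5.98 (KT2), against 2.42 (KC1) and 0 (KC2). It followed c78380_g1 library by library, also in the uneven control pairs. The unigene c78380_g4, which has no name in the study's tables used here, had 4.98 (CT1) and 5.49 (CT2) and 6.19 (KT1) and 5.61 (KT2). In control leaves it was listed at 0 in CC1 and KC2, at 0.14 in CC2 and at 0.53 in KC1.

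The log2 fold changes were 5.17 in K326 and 4.81 in CB-1 for c78380_g2 (adjusted p = 0.00463 and 0.00614), and 5.63 and 5.17 for c78380_g4 (adjusted p = 0.000279 and 0.000312, limma with Benjamini-Hochberg adjustment). The last unigene of the component behaved otherwise. Unigene c78380_g3 had 2.62 (CT1) and 2.20 (CT2), against 3.12 (CC1) and 3.18 (CC2), and 2.51 (KT1) and 2.85 (KT2), against 3.26 (KC1) and 3.08 (KC2). Its log2 values were lower in all 4 cold libraries, by 0.74 in CB-1 and 0.49 in K326 on average, and neither change was past the threshold (adjusted p = 0.0347 and 0.107, limma). Within 1 component, 3 unigenes thus had large positive changes and c78380_g3 a small negative one.

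**Figure D2:**
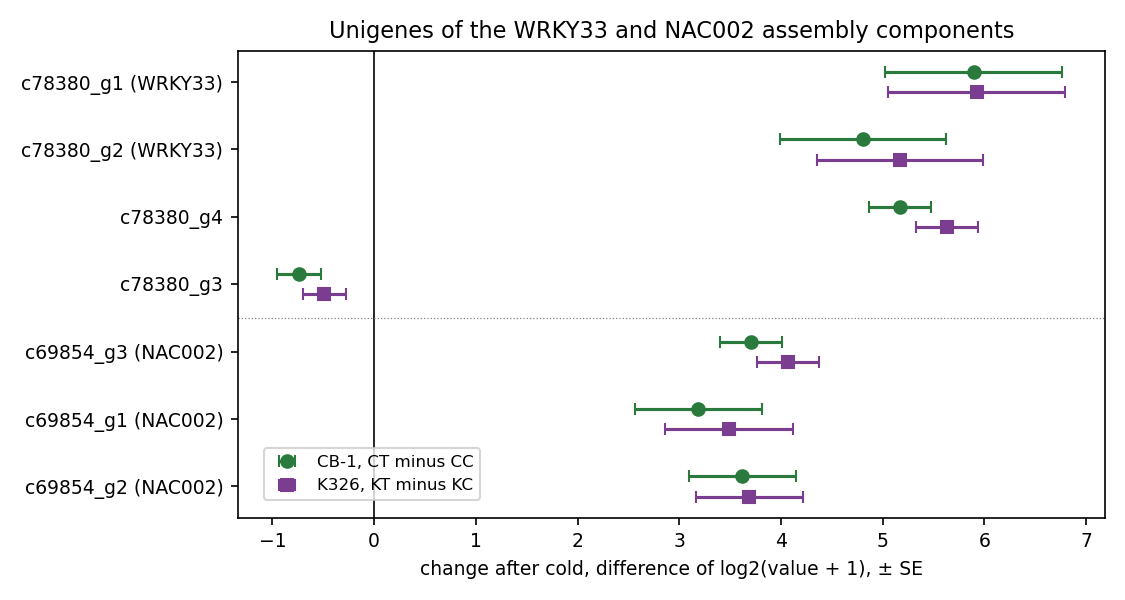
Change after cold of each unigene of the WRKY33 component (above the dotted line) and of the NAC002 component (below it), as the difference of log2(value + 1) with its standard error from limma; circles are CT minus CC and squares KT minus KC. All lie between 3.19 and 5.92 except c78380_g3, at −0.74 in CB-1 and −0.49 in K326.

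The makeup of the WRKY33 component differed between cold and control leaves. The unigene c78380_g1 made up 47.6% and 51.3% of the linear abundance of its component in CT1 and CT2, against 1.91% and 11.9% in CC1 and CC2. It made up 51.4% and 49.7% in KT1 and KT2, against 27.9% in KC1 and 0% in KC2. The cold libraries thus agreed closely in this share, while c78380_g3 was the largest part in each control library. Summed over the component, the log2 change was 4.53 in K326 and 4.20 in CB-1 (adjusted p = 0.00132 and 0.00169, limma with the sums in place of their unigenes). The sum is less steep than c78380_g1 alone because c78380_g3 is in it.

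The partners of NAC002 are both named NAC002 and both rose. Unigene c69854_g1 had 5.32 (CT1) and 4.64 (CT2), against 2.16 (CC1) and 1.43 (CC2). In K326 it had 5.53 (KT1) and 6.14 (KT2), against 3.25 (KC1) and 1.45 (KC2). Its replicates in KC were thus much less even than those of c69854_g3. Unigene c69854_g2 had 5.35 (CT1) and 4.97 (CT2), against 1.63 (CC1) and 1.45 (CC2), and 5.24 (KT1) and 5.46 (KT2), against 2.52 (KC1) and 0.81 (KC2). The log2 fold changes were 3.49 in K326 and 3.19 in CB-1 for c69854_g1 (adjusted p = 0.00704 and 0.0100), and 3.69 and 3.62 for c69854_g2 (adjusted p = 0.00334 and 0.00376, limma with Benjamini-Hochberg adjustment).

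Within its component, c69854_g3 held 59.6% and 54.9% of the linear abundance in CT1 and CT2, against 54.3% and 59.8% in CC1 and CC2. In K326 it held 51.5% and 47.5% in KT1 and KT2, against 29.1% in KC1 and 61.7% in KC2. The share was similar in cold and control leaves of CB-1, and KC1 stood apart from the other 7 libraries. The sum over the component changed by 3.98 in K326 and 3.78 in CB-1 (adjusted p = 0.00210 and 0.00263, limma), close to the changes of c69854_g3 alone. Of the 5 partner unigenes of both components, 4 rose past the threshold in each cultivar, against 14.7% of all unigenes tested in K326 and 15.5% in CB-1. Of these, c69854_g1 stayed past it in 19 of 20 alternatives in K326 and 17 of 20 in CB-1, and the others in all 20. Unigene c78380_g4, with values up to 0.53 in control leaves, passed the filter through the cold libraries alone. It could thus not fall past the threshold. Similar unigenes can share reads, and the part of this in these counts was not tested.

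**Figure D3:**
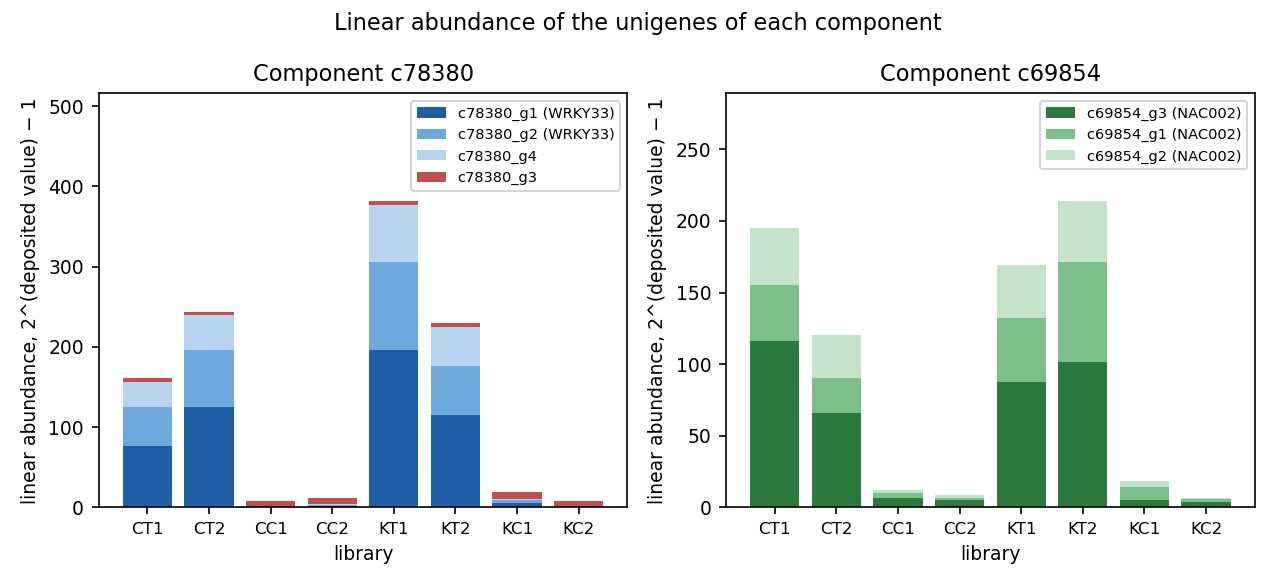
Linear abundance (2 to the power of the deposited value, minus 1) of the unigenes of component c78380 (left) and c69854 (right), stacked for each library, with cold libraries left of the control libraries of the same cultivar. The WRKY33 unigenes dominate the 4 cold bars of c78380 and c78380_g3 is the largest part in all 4 control bars, while c69854 is made of NAC002 unigenes throughout.

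Other WRKY unigenes rose with WRKY33. The list holds the 9 other unigenes with a WRKY name in the tables used here, including the component partner c78380_g2. The study chose most of them on these libraries, so that their direction is not independent evidence. Of these, 8 passed the filter, and 7 rose in CB-1 and 8 in K326 past the threshold, with 0 that fell, against 15.5% and 14.7% of all unigenes tested that rose. Their median log2 change was 4.05 in K326 and 3.51 in CB-1, against −0.31 and −0.20 over all unigenes tested. WRKY6, WRKY41, WRKY42, WRKY53 and the WRKY40 unigene c74235_g2 had control values of at most 0.69. They passed the filter through the cold libraries alone and could not fall past the threshold. For these the count of 0 that fell was thus fixed in advance. In all 8 the 4 cold libraries lay above the 4 control libraries, as they did in 20.6% of all unigenes tested.

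WRKY11 (c72670_g1), which restrains basal defence in Arabidopsis, was above 0 in every library. Its log2 values were 5.30 (CT1) and 6.07 (CT2), against 1.91 (CC1) and 2.06 (CC2), and 6.73 (KT1) and 6.11 (KT2), against 2.63 (KC1) and 1.75 (KC2). Its log2 fold changes were 4.23 in K326 and 3.70 in CB-1 (adjusted p = 0.000992 and 0.00153, limma). WRKY6 (c83950_g2), linked to senescence and phosphate supply, had 3.88 (CT1) and 4.06 (CT2), against 0.15 (CC1) and 0.21 (CC2). Its log2 fold change was 4.47 in K326 and 3.79 in CB-1.

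Both unigenes named WRKY40, a factor that tempers defence and abscisic acid responses in Arabidopsis, were raised in K326. Unigene c74235_g2 had log2 fold changes of 4.62 in K326 and 3.51 in CB-1, past the threshold in all 20 and in 19 of 20 alternatives. Unigene c67824_g2 had 5.74 (KT1) and 5.13 (KT2), against 3.27 (KC1) and 0.66 (KC2), and 4.49 (CT1) and 4.91 (CT2), against 1.18 (CC1) and 2.74 (CC2). Its control replicates were thus uneven in the same libraries as those of WRKY33. Its log2 change was 3.47 in K326 (adjusted p = 0.0239) and 2.74 in CB-1, where it was not past the threshold (adjusted p = 0.0531, limma). The rise of c67824_g2 in K326 held in 11 of 20 alternatives, with adjusted p from 0.00601 to 0.127.

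WRKY53 (c60230_g2), a regulator of leaf senescence, was higher in KT than in CT, a call that most alternatives did not keep. It had 3.35 (KT1) and 3.13 (KT2), against 1.48 (CT1) and 0.86 (CT2), while all control libraries had an entry of 0. The difference of 2.07 had an adjusted p of 0.0440 (limma with Benjamini-Hochberg adjustment), while its difference of the cold changes had an adjusted p of 0.246. The call of KT minus CT held in 4 of the 19 alternatives that gave a value, with adjusted p from 0.0121 to 0.218, and was lost with the replicate block (0.125), without a filter (0.164), with only the libraries compared (0.214) and without any one library other than CT2. The rise of WRKY53 in CB-1 held in 13 of the 19, with adjusted p up to 0.135, and that in K326 in all 19. WRKY41 (c76796_g2) had 3.57 (KT1) and 3.47 (KT2), against 1.42 (CT1) and 2.40 (CT2), with an adjusted p of 0.101 (limma), and its rise in CB-1 held in 17 of 19 alternatives. WRKY42 (c83320_g1) had log2 fold changes of 3.87 in K326 and 3.52 in CB-1. WRKY31 (c83950_g3) did not pass the filter and was listed at 0 in 6 libraries, with 3.16 (KT1) and 0.71 (KT2).

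In the cold, the mean of KT was above that of CT for all 8 tested WRKY unigenes of the list, by a median of 0.82. Both KT libraries lay above both CT libraries in 6 of the 8, and in 19.0% of all unigenes tested. WRKY33 itself did not show this separation, since CT2 lay above KT2. These names come in part from a sheet that favours unigenes that differ between the cultivars. The difference of the cold changes had log2 values from 0.36 to 2.07 in the 8. It was past the threshold for 0 of them and for 0% of all unigenes tested, so that this count does not set the WRKY unigenes apart.

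**Figure D4:**
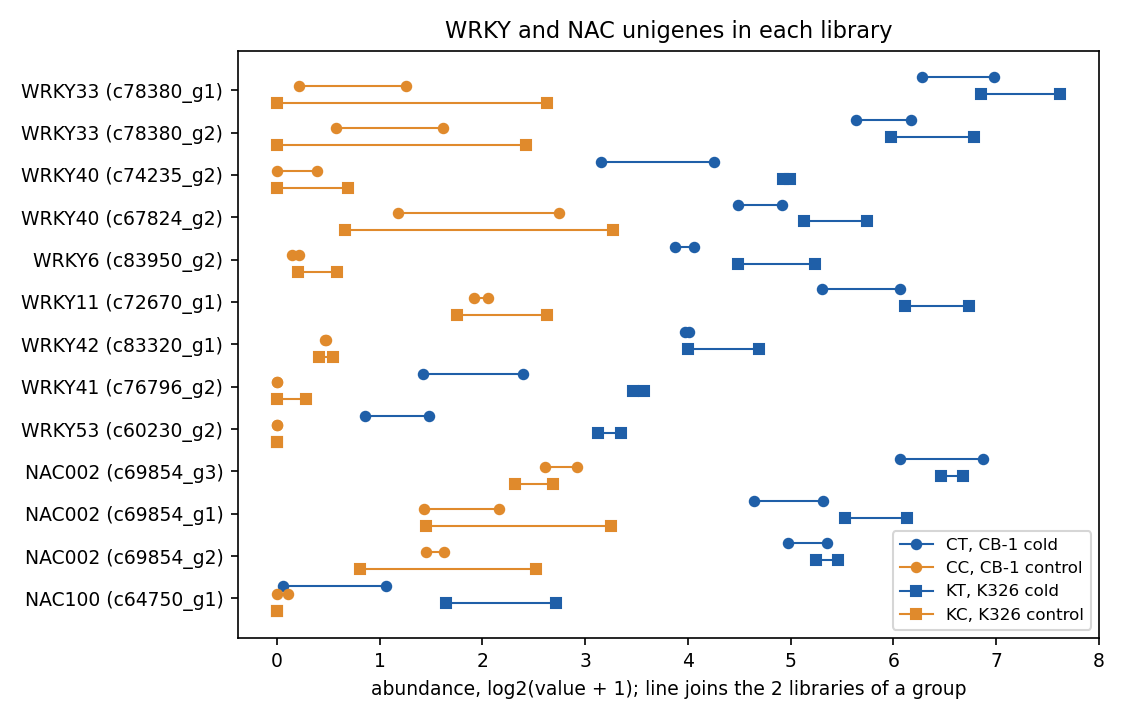
log2(value + 1) of WRKY33, NAC002 and the other tested WRKY and NAC unigenes in each library; blue marks cold and orange control libraries, circles CB-1 and squares K326, and a line joins the 2 libraries of a group. In every WRKY unigene the blue marks lie right of the orange ones, and the widest control lines are those of c78380_g1, c78380_g2 and c67824_g2 in KC.

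The only other NAC name in these tables, beside the NAC002 unigenes, was NAC100 (c64750_g1). It had 2.72 (KT1) and 1.64 (KT2) and was listed at 0 in KC1 and KC2. In CB-1 it had 0.06 (CT1) and 1.06 (CT2), against 0.11 (CC1) and 0 (CC2), where the groups overlapped. NAC100 passed the filter through cold libraries alone and could not fall past the threshold. Its change was past the threshold in K326 (2.18, adjusted p = 0.0117, kept in 14 of 19 alternatives) and not in CB-1 (0.51, adjusted p = 0.406), and the difference between the cultivars had an adjusted p of 0.514 (limma). NAC002, in contrast, had its 3 unigenes past the threshold in both cultivars.

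A first list of related genes holds 9 unigenes for ethylene, jasmonate and immune signalling, pathways in which WRKY33 acts in Arabidopsis. They were taken from a shortened sheet ordered by the difference between the cultivars, which favours unigenes that differ. Of these, 8 passed the filter, and 4 rose in K326 and 3 in CB-1 past the threshold, with 0 that fell, against 14.7% and 15.5% of all unigenes tested that rose. Their median log2 change was 2.54 in K326 and 1.45 in CB-1, against −0.31 and −0.20 over all unigenes tested. FLS2, at 0 in all control libraries, passed the filter through the cold libraries alone and could not fall. Nor could ACO3, At2g30020 and both ERF5 unigenes fall past the threshold in CB-1, where their CC means were at most 0.92. The ERF5 unigene c76536_g4, listed at 0 in KC1 and KC2, could not do so in K326 either. TIFY10A (c79352_g2), a repressor of jasmonate responses, had log2 values of 8.42 (CT1) and 8.37 (CT2), against 4.59 (CC1) and 2.35 (CC2). In K326 it had 6.88 (KT1) and 6.85 (KT2), against 3.24 (KC1) and 3.86 (KC2). Its cold libraries lay above its control libraries, and CT above KT. Its log2 fold changes were 3.32 in K326 and 4.92 in CB-1, and their difference had an adjusted p of 0.715 (limma). The rise held in 17 of 20 alternatives in K326 and in all 20 in CB-1.

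The immune receptor FLS2 (c85695_g3) was listed at 0 in all control libraries and had 4.29 (KT1) and 2.85 (KT2), against 1.54 (CT1) and 1.32 (CT2), with changes of 3.57 in K326 and 1.43 in CB-1. These were past the threshold (adjusted p = 0.00223 and 0.0453, limma) and stayed so in 17 of 19 alternatives in K326 and 8 of 19 in CB-1. SOBIR1 (c80631_g1), a kinase that works with receptor-like proteins, rose by 3.22 in K326 (adjusted p = 0.00631), and had a change of 1.48 in CB-1 that was not past the threshold (adjusted p = 0.0784, limma). The protein phosphatase At2g30020 (c80156_g3), which acts on stress MAP kinases in Arabidopsis, rose by 4.27 in K326 (adjusted p = 0.0155) and had a change of 2.69 in CB-1 (adjusted p = 0.0701). One ERF5 unigene, c11386_g1, rose in CB-1 only by the threshold, with a log2 change of 0.07 in K326 and 2.32 in CB-1, whose difference had an adjusted p of 0.386 (limma). Its means were 2.12 in KT and 2.77 in CT, against 2.05 in KC and 0.45 in CC. The cultivars thus lay further apart in control leaves than in the cold. The calls held in 18 of 20 alternatives for SOBIR1, 14 of 20 for At2g30020 and 15 of 20 for ERF5.

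The genes for hormone synthesis in this list did not pass the threshold. CYP74A (c78485_g1), the allene oxide synthase of jasmonate synthesis, had a log2 change of −1.95 in K326 and 0.85 in CB-1. ACO3 (c74817_g1), an enzyme of the last step of ethylene synthesis, had 2.87 (KT1) and 2.14 (KT2), against 2.09 (KC1) and 0.25 (KC2). It was listed at 0 in both CT libraries, against 0.13 (CC1) and 1.70 (CC2). ACS1 (c74414_g1), of the step before, did not pass the filter and was above 0 only in KT1 (3.02) and KT2 (0.14). The other ERF5 unigene, c76536_g4, had log2 changes of 1.85 in K326 and 0.22 in CB-1, neither past the threshold.

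A second list holds 4 unigenes for abscisic acid and drought, with which NAC002 is linked in Arabidopsis, from the same sheet. Of these, 3 passed the filter, and 2 rose in each cultivar past the threshold, against 14.7% of all unigenes tested in K326 and 15.5% in CB-1. Their median log2 change was 3.8 in K326, the value of ATHB-7, which was not past the threshold there (adjusted p = 0.0640, limma), and 1.69 in CB-1, against −0.31 and −0.20 over all unigenes tested. ABA2, at 0 in all control libraries, could not fall. CIPK11, with a mean of 0.82 in CC and in KC, could not fall past the threshold. The 2 that rose past it were these, so both could be called in 1 direction only. CIPK11 (c75409_g1), a kinase of calcium signalling, had log2 fold changes of 5.02 in K326 and 3.22 in CB-1, past the threshold in all 20 and in 18 of 20 alternatives. ABA2 (c72991_g13), an enzyme of abscisic acid synthesis, was listed at 0 in all control libraries and had 3.99 (KT1) and 2.94 (KT2), against 1.65 (CT1) and 1.73 (CT2), and its rise held in all 19 alternatives in K326 and 13 of 19 in CB-1. ATHB-7 (c72344_g1), a factor raised by water deficit in Arabidopsis, had 5.43 (KT1) and 6.10 (KT2), against 3.94 (KC1) and 0 (KC2). In CB-1 it had 0.03 (CT1) and 0 (CT2), against 0 (CC1) and 2.54 (CC2), and neither change was past the threshold. PYL4 (c50289_g2), an abscisic acid receptor, did not pass the filter, with 2.36 in KT1 and values up to 0.54 elsewhere.

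WRKY33 and NAC002 differed in how their replicates deviated. WRKY33 was higher in CT2 than in CT1, by 0.70, and lower in KT2 than in KT1, by 0.77. NAC002 was lower in CT2 than in CT1, by 0.81, and slightly higher in KT2 than in KT1, by 0.22. Each was thus high in the cold library of a cultivar in which the other was low. Of the 8 tested WRKY unigenes of the list, 7 deviated in the cold as WRKY33 did, and 0 as NAC002 did. The exception was WRKY53. Only the signs were counted, and some differences were small. CT2 minus CT1 was 0.045 for WRKY42, and KT2 minus KT1 was −0.069 for the WRKY40 unigene c74235_g2. Among the 7 is c78380_g2, a component partner that can share reads with WRKY33. The arrangement of WRKY33 was found in 18.0% of all unigenes tested and that of NAC002 in 20.5%. Both other NAC002 unigenes deviated as c69854_g3 did, and NAC100 as WRKY33 did.

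In control leaves, WRKY33 was higher in CC2 than in CC1 and higher in KC1 than in KC2, the libraries that also correlated across the cultivars. The same arrangement was seen in 5 of the 8 WRKY unigenes, and in 22.4% of all unigenes tested. Again only the signs were counted. CC2 minus CC1 was 0.062 for WRKY6, at values of 0.15 (CC1) and 0.21 (CC2), and 0.14 for WRKY11. Among the 5 is c78380_g2, which can share reads with WRKY33. NAC002 did not show this arrangement, being lower in CC2 than in CC1 by 0.31. The part of this library difference in the control levels was not tested.

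**Figure D5:**
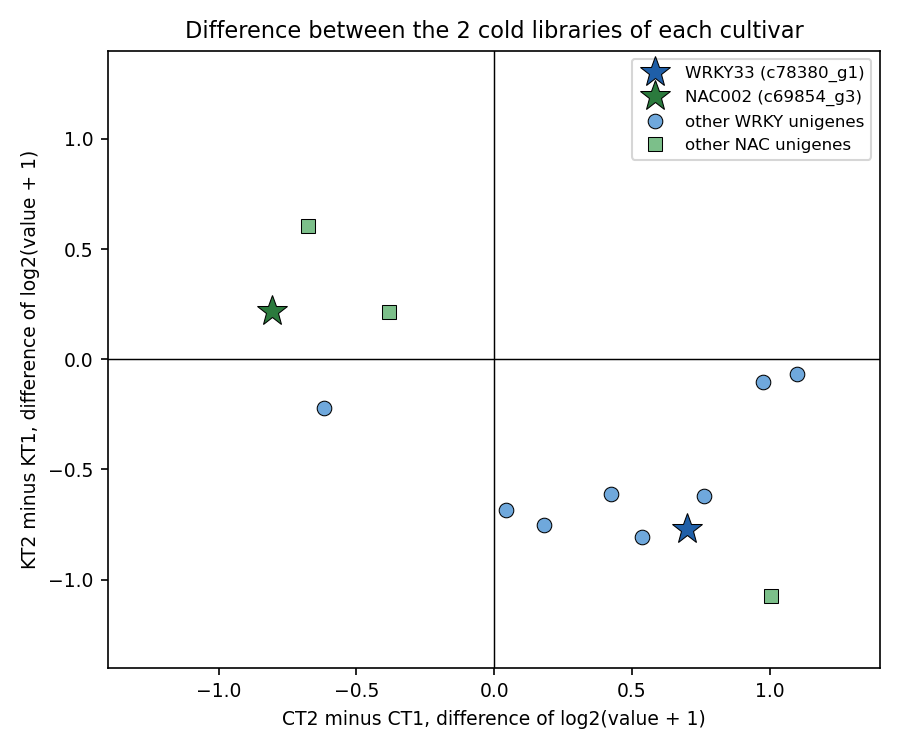
Difference between the 2 cold libraries in K326 (KT2 minus KT1, vertical) against that in CB-1 (CT2 minus CT1, horizontal), both on the log2(value + 1) scale, for WRKY33, NAC002 and the other tested WRKY and NAC unigenes. WRKY33 and 7 of 8 other WRKY unigenes lie at the lower right, and the 3 NAC002 unigenes at the upper left.

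The unigenes with the pattern most like each member were found by the root mean square difference over the 8 libraries, after centring each unigene on its own mean. For WRKY33 the nearest one outside its component was c82987_g3, at 0.33 on the log2 scale, which has no name in the tables used here. It had 7.57 (KT1) and 7.08 (KT2), against 2.0 (KC1) and 0.15 (KC2), and 5.95 (CT1) and 6.28 (CT2), against 0.28 (CC1) and 1.13 (CC2). It shared with WRKY33 the higher values in KC1 and CC2. The partner c78380_g2 was at 0.50, and the other nearest unigenes lay between 0.46 and 0.57. Such likeness was not rare, since 4.52% of the other unigenes tested had a Pearson's correlation over 0.95 with WRKY33.

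For NAC002 the nearest unigene outside its component was c89139_g1, at 0.18, also unnamed. It had 4.33 (CT1) and 3.75 (CT2) and 3.99 (KT1) and 4.16 (KT2), but 0.07 in KC1 and 0 in the other control libraries. Its change was thus 4.04 in both cultivars, while its control level, unlike that of NAC002, was almost 0. The next 4 unigenes lay between 0.19 and 0.21, all with 0 in every control library. The partners c69854_g2 and c69854_g1 lay further off, at 0.40 and 0.62. A Pearson's correlation over 0.95 with NAC002 was found in 6.93% of the other unigenes tested.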

How the data were processed

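Leaf RNA of 8 samples was sequenced by the authors. They filtered reads on quality, built unigenes from all libraries with Trinity, aligned reads to these with bowtie and estimated abundances with RSEM. The authors deposited these as log2(value + 1), 1 column for each library, without read counts. All columns were used. Linear values are 2 to the power of the deposited value, minus 1.

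Unigenes reaching a log2 value of 1 in 2 or more libraries were fitted with limma 3.58.1 in R 4.3.3, with 4 group means, a variance trend and Benjamini-Hochberg adjustment over all 31884. The threshold was an adjusted p under 0.05 and a log2 change over 1 in size. The study names a t-test. With 2 libraries against 2, an exact permutation test cannot give a p under 0.333, so that calls rest on the spread shared between unigenes. The script was tested on simulated data. Fold changes on this scale understate the change of low unigenes.

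Alternatives covered the pseudocount, the filter, the scaling, the moderation, the libraries fitted, the replicate number, the control groups, each library left out and the sum over each assembly component. Names come from the paper's tables, of which only a part was used here. The members and lists were chosen with earlier results of these data known, and the unigenes named are the members, their component partners, the lists and the nearest patterns (5 for each member, of which 1 is named).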

Additional observations from a re-analysis of the deposited data

How the results depend on the processing

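The rise of WRKY33 and of NAC002 past the threshold held in both cultivars under all 21 alternatives run, with log2 changes of WRKY33 from 4.53 to 7.69 (K326) and 4.20 to 7.3 (CB-1), and of NAC002 from 3.89 to 4.48 (K326) and 3.30 to 4.11 (CB-1). The highest adjusted p among them was 0.0330 (limma). The low ends of the WRKY33 ranges are changes of its component sum, put in place of c78380_g1. For c78380_g1 itself the smallest changes were 4.61 in K326, without KC2, and 5.38 in CB-1, without CC1. With the replicate block the adjusted p in K326 was 0.00851 for WRKY33 and 0.00165 for NAC002, and in CB-1 0.00908 and 0.00182. The block changed no call of the members. Deviations of same-numbered libraries had correlations from −0.38 (CC with KC) to 0.045 (CT with KC) across unigenes, which are no independent replicates. Whether replicate numbers pair these samples is not given by the labels and cannot be told from these values.

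Median-ratio scaling moved the median change of all unigenes to 0.047 in K326 and 0.066 in CB-1, against −0.31 and −0.20 as deposited, and the share of calls that rose to 58.8% in both, against 42.9% and 47.0%. The log2 change of WRKY33 was then 6.23 in K326 and 6.10 in CB-1, and that of NAC002 4.48 and 4.01.

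Most differences between the cultivars changed sign without being past the threshold. With single libraries left out, the difference of the cold changes ranged from −1.29 to 1.34 for WRKY33, from −0.036 to 0.77 for NAC002, from −0.27 to 0.94 for the sum of c78380 and from −0.50 to 0.90 for the sum of c69854. KT minus CT of NAC002 ranged from −0.30 to 0.51 and KC minus CC of WRKY33 from −0.73 to 1.90. Without CC1 and KC2, added after seeing the data, the difference of the cold changes was −0.77 for WRKY33, −0.055 for the sum of c78380 and −0.73 for that of c69854, and KC minus CC of NAC002 was 0.076. Without CC2 and KC1, KC minus CC of WRKY33 was −0.21.

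The count of all unigenes past the threshold was 10477 in CB-1, 10917 in K326 and 11758 for the mean of both. It was 5572, 5981 and 5992 with the stricter filter, which tests fewer unigenes, and for single cultivars 5522 and 6158 without CC2 and KC1 and 5648 and 5917 without CC1 and KC2. For KT minus CT it was 129, and ranged from 0 to 820 (80 with a pseudocount of 0.5, 225 and 260 with quantile and median-ratio scaling, 217 without moderation and 820 with one control group). It was 0 with no filter, with the stricter filter, with the replicate block, with a fit of only the libraries compared and without any one library other than CT2, and 719 without CT2. The difference of the cold changes gave 0, and 143 without moderation, 615 without CC2 and KC1 and 751 without CC1 and KC2. KC minus CC gave 0 past the threshold and 1127 at an unadjusted p under 0.05 in limma, with 13, 412 and 574 in the same settings. A crossed pairing of the control libraries, added after seeing the data, gave 0.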
